A study of Rattus norvegicus with 16 samples.

Results

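The H35 clone 4-18, in which *Pdrg1* was silenced with the shRNA4 plasmid, was compared with CN-10, a clone that carries the negative control plasmid. H35 is an established rat hepatoma line that keeps part of the gene program of the hepatocyte. The comparison takes 4 arrays of 4-18 and 4 of CN-10, 8 of the 16 arrays of the series, chosen by the sample titles. The other arrays read clone 3-44 (stable, shRNA3 plasmid) and shRNA3T, a pool of cells enriched after transient transfection with the shRNA3 plasmid. They entered the fit and gave the direct comparisons of 4-18 with each of these groups. Cells of all groups grew in the same DMEM medium with serum and glutamine, were transfected with Lipofectamine and were selected with G418, and stable clones had a further selection at a higher concentration. Each plasmid is represented by a single stable clone, and clones were kept for reproducible behavior in RT-qPCR. The paper calls the 4 samples of a clone biological replicates. All come from the same clone, so a p-value here covers the spread within these clones and not the spread between clones. The effect of silencing cannot be told apart from what distinguishes one clone from another.

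PDRG1 is a small prefoldin-like protein named for its regulation by p53 and DNA damage. It is found with the R2TP and prefoldin-like assembly, which helps build large protein complexes, and it binds methionine adenosyltransferases, the enzymes that make S-adenosylmethionine. The liver cell itself takes up and releases glucose, burns and packages fat, secretes most plasma proteins and detoxifies drugs, and the groups of genes described here follow these tasks.

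Values are normalized log2 intensities of the Cy3 signal of a single sample per array, so that 1 unit is a 2-fold difference. A gene was called when 4-18 and CN-10 differed at least 2-fold with a Benjamini-Hochberg adjusted p under 0.05 in limma. The arrays of 4-18 were dimmer than those of CN-10. The 75th percentile of spot signal was 1614 to 1946 in 4-18 and 2617 to 3512 in CN-10, and 53.1% to 64.1% of spots were well above background in 4-18 against 66.8% to 70.6% in CN-10. On replicate 4 of 4-18, 3 spots lay more than 50 units under their local background. They shift the background correction of that array, whose median in the deposited log2 values was 8.96 against 7.43 to 7.66 on the other arrays of 4-18. Quantile normalization removes this shift, and with the 3 spots kept out of the background fit 1694 genes were called in place of 1614. No slide held arrays of more than a single group, and a different scan day applies to 4-18, so that slide, scan and group cannot be told apart.

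*Pdrg1*, the silenced gene, read 13.41, 13.88, 13.51 and 13.77 in CN-10 and 11.57, 13.33, 13.34 and 13.25 in 4-18. All arrays of 4-18 lay below all arrays of CN-10, and replicate 1 of 4-18 lay far below the other three. The mean difference was -0.77 (SE 0.34, limma adjusted p = 0.129; exact permutation p = 0.0286, two-sided, the smallest that 4 arrays against 4 allow), so *Pdrg1* did not meet the calling rule. The adjusted p depended on the processing, with 0.0482 (-0.82) for the processed signal at the 75th percentile and 0.0407 (-0.83) for its quantile-normalized form, both under 2-fold. *Pdrg1* was called lower at a common median (-1.27, adjusted p = 0.00598) and with the deposited series values (-1.52, adjusted p = 0.0206), but at -0.92 it was not at a common median without the 3 far spots. The adjusted p had a range from 0.00598 to 0.349 over the alternatives. Without replicate 1 of 4-18 the difference was -0.33. The direct difference of 4-18 was 0.22 from 3-44 (adjusted p = 0.702) and 0.08 from shRNA3T (adjusted p = 0.913).

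Among 26267 gene names, 687 (2.62%) were called higher and 927 (3.53%) lower in 4-18. Among the 12008 genes well above background on all 8 arrays, 5.16% were called higher and 6.1% lower. The direct comparison with 3-44 called 2.1% of genes higher and 2.87% lower in 4-18, and that with shRNA3T 1.86% higher and 2.7% lower. Among 37 lists of pathways and families, those of hypoxia response, glycolysis, gluconeogenesis and fatty acid oxidation had the highest shares of increases, and those of acute phase proteins, the cell cycle and inflammation the highest shares of decreases. Each gene list below was chosen with earlier results of these arrays known, so its counts are descriptions to be read against these percentages. Of 177 called genes named here, 140 kept their call on values scaled to a common median and 161 there without the 3 far spots. With the deposited series values 129 did. The losses are given below for some lists only, and other lists lost calls as well.

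**Figure D1:**
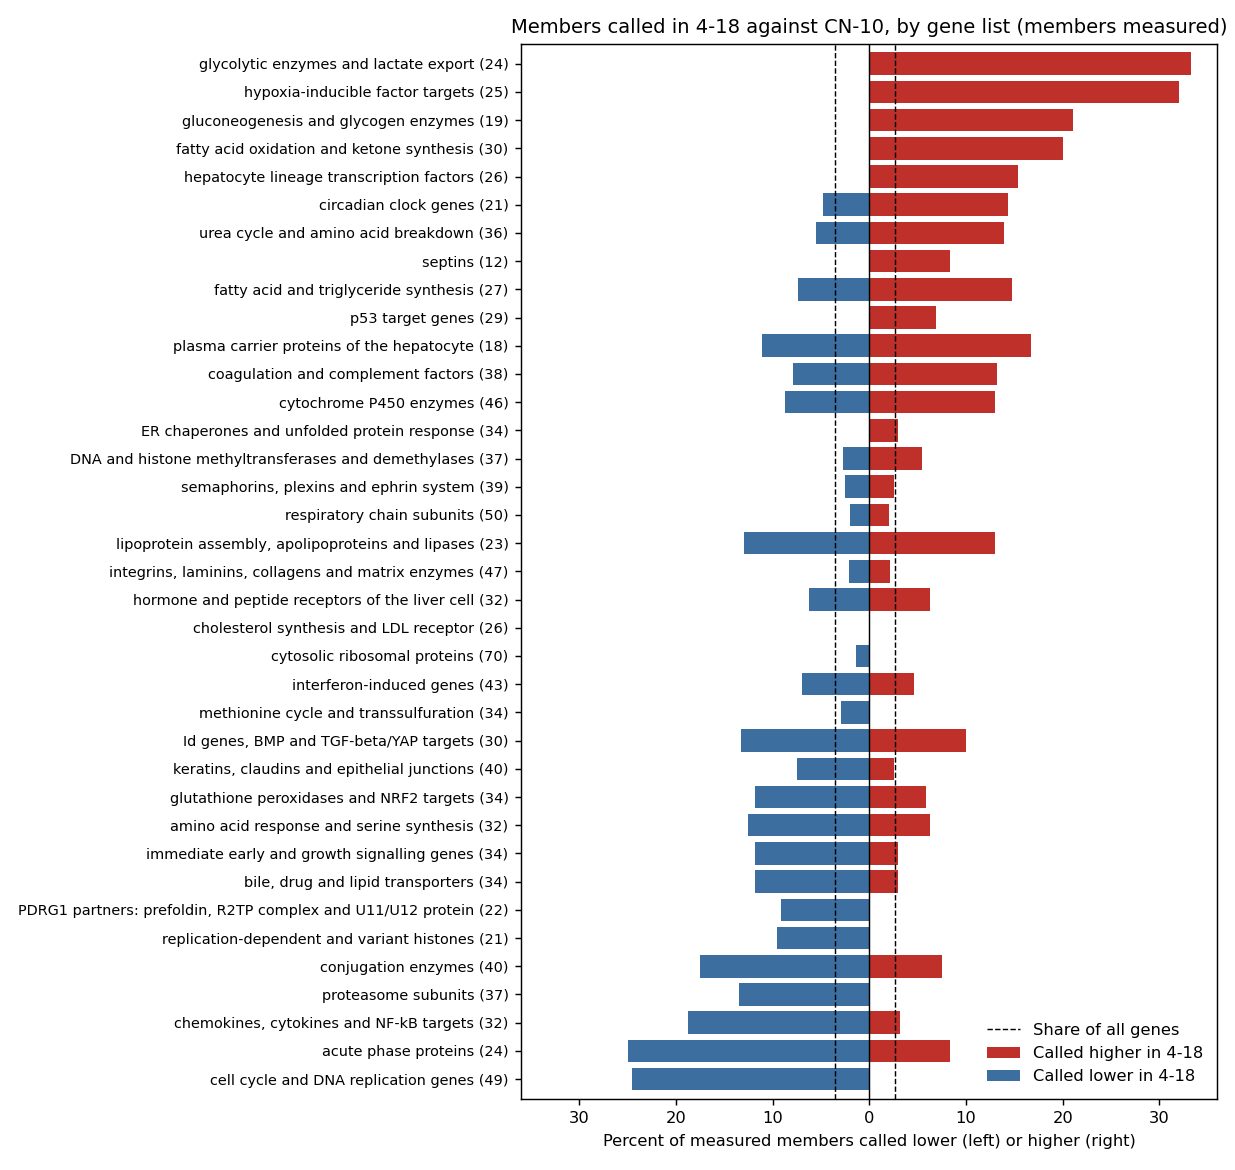
Percent of the measured members of 37 gene lists called higher (right, red) or lower (left, blue) in 4-18 against CN-10, with the number of measured members in parentheses and dashed lines at the shares of all genes, 2.62% and 3.53%. Glycolytic enzymes reach 33.3% on the higher side and acute phase proteins 25% on the lower side.

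The 12 genes with the largest increase covered very different functions. *Aldoc*, the brain-type aldolase of glycolysis, read 7.3, 7.15, 7.76 and 7.38 in CN-10 and 12.98, 13.1, 12.55 and 13.16 in 4-18, a 46.9-fold difference (log2 5.55, SE 0.16, adjusted p = 9.72e-12), while its second probe gave a log2 difference of 2.79. *Serpina6*, which encodes corticosteroid-binding globulin of plasma, rose from 7.08, 6.96, 7.05 and 6.47 to 11.81, 11.53, 12.36 and 12.47 (log2 5.15, SE 0.2, adjusted p = 1.48e-10), with 3 of the 4 arrays of CN-10 well above background. *Slc22a12*, a urate transporter, stayed near background on all arrays of CN-10 and was at least 21.3-fold higher in 4-18. The same held for *Chia*, an acidic chitinase, which was at least 13.5-fold higher.

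*Upp2* (uridine phosphorylase; 1 of 4 arrays of CN-10 above background), *Sptlc3* (a subunit of the first enzyme of sphingolipid synthesis), *Slc30a2* (a zinc exporter; 3 of 4 arrays), *Lcp1* (an actin-bundling protein of blood cells), *Dct* (a melanin enzyme), *Tmem140* and *Rtn2* were also among the 12, with log2 differences from 3.53 in *Rtn2* to 4.32 in *Upp2*. Chosen for their large differences, these genes had no overlap of values between 4-18 and CN-10, which is no separate result. Of the 12, *Aldoc* (log2 0.17, adjusted p = 0.497) was the gene without a call in the direct comparison with 3-44, and it had no call against shRNA3T either (-0.19, adjusted p = 0.473).

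The 12 genes with the largest decrease were led by *Cxcl1*, the neutrophil chemokine described with its relatives below, and *Mx1*, an antiviral GTPase induced by interferon. *Lcn2*, the iron-scavenging lipocalin of the acute phase, fell from 11.53, 11.29, 11.36 and 10.99 to 7.35, 7.0, 7.73 and 7.61 (log2 -3.87, SE 0.16, adjusted p = 2.76e-10), and *S100a6*, a calcium-binding protein, from 15.55, 15.34, 15.34 and 15.31 to 12.08, 11.92, 11.88 and 11.81 (log2 -3.46, SE 0.12, adjusted p = 5.97e-11). *Sdr16c6*, a short-chain dehydrogenase, was above background on no array of 4-18 and was at least 16-fold lower there. *Ugt2b7*, a glucuronosyltransferase, was at least 8.97-fold lower by the same bound.

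*Ly6d*, *Kng1* (a kininogen, named *Kng2* in RefSeq), *Cox6a2* (the muscle form of a cytochrome c oxidase subunit), *Gpx2* (a glutathione peroxidase), *Aldh1a7* and *Ddah1* (which breaks down methylarginines) completed the 12, with log2 differences from -3.64 in *Ly6d* to -2.87 in *Ddah1*. *Ly6d* was above background on 3 and *Cox6a2* on 2 of the 4 arrays of 4-18. For *Ddah1* the second probe gave -0.96 and for *Gpx2* -1.99. Against shRNA3T, *Cox6a2* (log2 -0.43) and *Gpx2* (log2 -0.01) were not called.

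Glycolysis was the list with the largest share of increases. Of 24 measured genes of glycolysis and lactate export 8 were called higher (33.3%) and none lower, and the median of the list stood 0.51 above that of all genes. On values scaled to a common median this excess was 0.01, and 0.19 with the 3 spots far under background on replicate 4 of 4-18 left out of the background fit as well. A check chosen after seeing the data took only genes well above background on all 8 arrays. There the excess at a common median differed from 0.51 by less than the spread between arrays. The same held for the gluconeogenesis, hypoxia and fatty acid oxidation lists below. Of the 8 calls 6 were kept at a common median and 5 with the deposited series values. The called members included the aldolases *Aldoc* and *Aldoa*, the phosphofructokinases *Pfkp* and *Pfkm*, which set the pace of the pathway, glucose-6-phosphate isomerase *Gpi*, the neuronal enolase *Eno2* and the lactate dehydrogenase subunit *Ldhb*. *Ldhb* rose 6.73-fold, from 7.63, 7.65, 7.78 and 7.31 to 10.7, 10.2, 10.31 and 10.16.

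Of the 24 genes, 4 were called higher in 4-18 than in 3-44 and 2 higher than in shRNA3T, and none lower. The median of the list was 0.17 above CN-10 in 3-44 and 0.44 in shRNA3T, in comparisons that share the CN-10 arrays. *Ldhb* was 3.0 (log2) above 3-44 and 2.64 above shRNA3T, both called. *Pfkp*, the platelet-type phosphofructokinase, read 6.71, 6.53, 6.55 and 6.33 in CN-10 and 8.5, 8.53, 8.37 and 8.01 in 4-18 (log2 1.82, SE 0.13, adjusted p = 9.94e-08). It likewise stood above 3-44 by 1.75 and above shRNA3T by 1.71, and 3 of the 4 arrays of CN-10 were above background. *Eno2* read 8.5, 8.66, 8.55 and 9.03 in CN-10 and 10.99, 10.36, 9.31 and 9.85 in 4-18 (log2 1.45, SE 0.35, adjusted p = 0.00706), while its second probe gave -0.13. *Gpi* (log2 1.02) and *Aldoa* (log2 1.01) lay just past the 2-fold limit, and *Pfkl*, the liver phosphofructokinase, just under it (log2 0.95, adjusted p = 0.000431). The call of *Gpi* was lost without replicate 1 of CN-10 or replicate 1 or 2 of 4-18, with differences down to 0.89, and that of *Aldoa* without replicate 1 of CN-10 or replicate 3 or 4 of 4-18, with differences down to 0.91. *Gapdh* differed by 0.53 (adjusted p = 0.000821), also under 2-fold.

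Genes of glucose release and glycogen were also called in a single direction. Of 19 measured members 4 were called higher and none lower, and the list's median stood 0.33 above all genes, but -0.23 from them on values scaled to a common median, or 0.11 with the 3 far spots of replicate 4 of 4-18 left out as well. *Gys2*, the liver glycogen synthase, rose from 14.84, 14.61, 14.72 and 14.57 to 18.14, 17.74, 17.9 and 17.93 (9.49-fold, log2 3.25, SE 0.11, adjusted p = 5.94e-11). The catalytic glucose-6-phosphatase *G6pc1*, which releases free glucose, rose 3.86-fold from 12.52, 12.56, 12.54 and 12.73 to 14.57, 14.5, 14.56 and 14.51.

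The fructose-bisphosphatases of gluconeogenesis, *Fbp2* (3.77-fold) and *Fbp1* (3.4-fold), were called as well. *Pck1*, the cytosolic gluconeogenic carboxykinase, did not follow, with a log2 difference of -0.25 (adjusted p = 0.478) from CN-10 and overlapping arrays (-0.48 to -0.12 with an array left out, at -0.48 without replicate 4 of CN-10 and at -0.12 without replicate 1 of CN-10 or replicate 3 of 4-18), and it was called lower in 4-18 than in 3-44 (-1.51) and shRNA3T (-2.8). *Gys2*, *Fbp1* and *Fbp2* were called higher in 4-18 in both direct comparisons, whereas *G6pc1* was in neither (log2 -0.13 against 3-44 and -0.7 against shRNA3T).

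**Figure D2:**
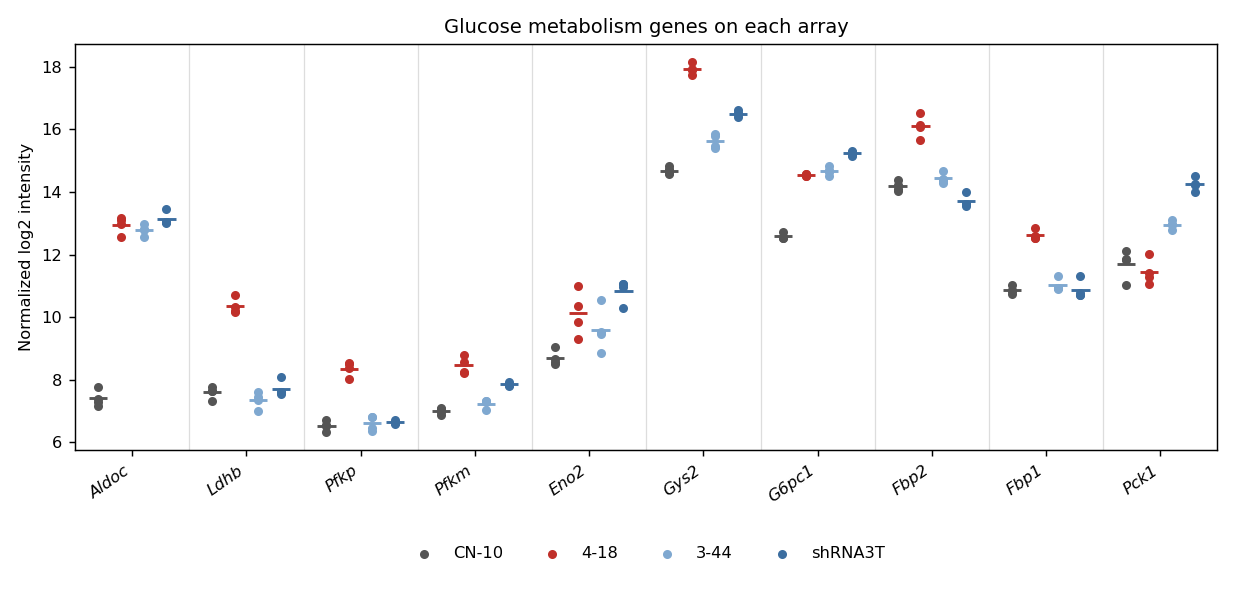
Normalized log2 intensity of 10 glucose metabolism genes on each of the 16 arrays, with a line at the mean of each group. The dots of 4-18 (red) lie above those of CN-10 (grey) for every gene but *Pck1*, and for *Aldoc* the arrays of 3-44 and shRNA3T are as high as those of 4-18.

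Hypoxia-inducible factors are the transcription factors that switch cells to glycolysis when oxygen is low. Of 25 measured targets 8 were called higher (32%) and none lower, and the median stood 0.58 above all genes. On values scaled to a common median this excess was 0.07, and 0.24 with the far spots left out as well. Of the 8 calls 4 were kept at a common median, 7 there without the far spots and 1, *Hmox1*, with the deposited series values. *Hmox1*, the heme oxygenase, rose from 9.96, 10.08, 10.06 and 10.06 to 12.22, 12.56, 12 and 12.13 (4.54-fold, log2 2.18, SE 0.16, adjusted p = 1.39e-07). The other called members were *Ndrg1* (2.72-fold), *Ankrd37* (2.54-fold), the collagen prolyl hydroxylase subunits *P4ha2* (2.51-fold) and *P4ha1* (2.17-fold), the mitophagy receptor *Bnip3* (2.49-fold), the repressor *Bhlhe40* (2.39-fold) and the oxygen sensor *Egln1* (2.11-fold).

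*Bhlhe40* rested on overlapping arrays, 8.69, 8.28, 8.62 and 8.29 against 10.23, 10.65, 9.62 and 8.4, and its call was lost without replicate 2 of 4-18 (log2 0.95). Without replicate 1 of CN-10 *P4ha1* was at 0.98, and without replicate 3 of CN-10 *Egln1* was at 0.98, both under 2-fold. *Vegfa*, the angiogenic growth factor, went the other way by -0.79 (adjusted p = 0.00831), under the 2-fold limit, but its other probes gave differences from -0.12 to 0.87. The direct comparison with 3-44 called 4 of the 25 higher and 1 lower in 4-18, and that with shRNA3T 2 higher and 2 lower. The level of the list in 3-44 and shRNA3T lay 0.31 and 0.6 above CN-10 at the median, in comparisons that share the CN-10 arrays.

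Promoter sequence is a feature that the calls did not use. The core of the hypoxia response element is ACGTG or GCGTG, and it was searched on both strands of the 250 bases before each gene's start in the RefSeq promoters of GRCr8. Of the 16 called members of the glycolysis and hypoxia lists 13 had a promoter there, and 12 of these (92.3%) held a core, against 37.8% of 27457 promoters and 58% of the 6380 promoters of genes well above background on all 8 arrays. *Gpi* was the member without one. Of the 33 members of these lists that were not called higher, 28 had a promoter and 16 of these (57.1%) held a core. Targets of hypoxia-inducible factors are known for this element, and the lists were chosen by such knowledge. On the given strand alone the shares were 76.9% of the called members, 53.6% of the others and 25.1% of all promoters. These stretches of 150 bases up to the start show how the cores lie in a glycolytic gene with 3 of them, in those with a single one and in *Bnip3*, where they cluster. Capitals mark the cores, written CACGT or CACGC where they lie on the other strand.

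Aldoc, chr10:63715394-63715543, plus strand: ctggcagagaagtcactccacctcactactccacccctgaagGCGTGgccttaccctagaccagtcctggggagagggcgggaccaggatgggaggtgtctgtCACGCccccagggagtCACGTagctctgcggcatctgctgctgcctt
Eno2, chr4:159267221-159267370, minus strand: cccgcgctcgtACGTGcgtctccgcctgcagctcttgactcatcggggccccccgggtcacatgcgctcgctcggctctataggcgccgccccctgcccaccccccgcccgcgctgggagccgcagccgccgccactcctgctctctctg
Pfkp, chr17:68639663-68639812, plus strand: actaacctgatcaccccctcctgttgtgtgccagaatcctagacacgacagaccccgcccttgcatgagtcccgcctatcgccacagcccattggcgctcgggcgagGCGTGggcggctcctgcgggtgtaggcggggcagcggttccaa
Bnip3, chr1:203154963-203155112, minus strand: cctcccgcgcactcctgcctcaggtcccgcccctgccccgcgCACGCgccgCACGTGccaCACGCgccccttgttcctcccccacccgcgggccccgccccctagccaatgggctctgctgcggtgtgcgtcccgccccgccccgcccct

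In *Aldoc* the cores begin 108, 47 and 31 bases before the start, in *Eno2* 139, in *Pfkp* 43 and in *Bnip3* 108, 99, 98 and 90, the middle pair overlapping in CACGTG. The cores are 5 bases long and frequent in GC-rich promoters, and a match is a description of the sequence, not a bound site.

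Fat oxidation genes were called in the same direction. Of 30 members of fatty acid oxidation and ketone synthesis 6 were called higher (20%) and none lower, and the median stood 0.42 above all genes, but -0.37 from them on values scaled to a common median, or 0.01 with the 3 far spots of replicate 4 left out as well. Of the 6 calls 4 were kept at a common median and 3 with the deposited series values. *Acads* (log2 1.77) and *Acadm* (log2 1.42), dehydrogenases for short and medium chains, and the thioesterase *Acot1* (log2 1.05) were called, as was the fat-sensing receptor *Ppara* (log2 1.15).

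*Ppargc1a*, the coactivator of mitochondrial and gluconeogenic genes, read 6.35, 6.14, 6.21 and 6.34 in CN-10, on no array well above background, and 8.71, 8.81, 8.15 and 8.65 in 4-18, at least 4.72-fold higher. It was also called higher in 4-18 than in 3-44 and shRNA3T, where no array was well above background either, the only one of the 6 with a call in both direct comparisons. Of the 30 members, 1 was called higher and 2 lower in 4-18 than in 3-44, and 1 higher and 3 lower than in shRNA3T. The median of the list was 0.33 above CN-10 in 3-44 and 0.53 in shRNA3T, in comparisons that share the CN-10 arrays.

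Fatty acid synthesis was split, with 4 of 27 higher and 2 lower. At a common median and with the deposited series values only *Acacb* and *Lpin1* kept a higher call, against 3 and 4 members called lower. At a common median without the far spots all these calls were kept. *Fasn*, the fatty acid synthase, rose 1.34 (SE 0.14, adjusted p = 4.53e-06) and was 1.61 above 3-44, and *Lpin1* (1.32) and *Acsl1* (1.22) rose on the log2 scale too. *Acacb*, above background on no array of CN-10 and on 3 of 4-18, was at least 2.07-fold higher. *Acsl4*, the acyl-CoA synthetase for arachidonic acid, fell from 14.01, 14.34, 14.42 and 14.24 to 11.99, 12.16, 12.29 and 12.36 (log2 -2.05), and *Agpat2*, an acyltransferase of triglyceride synthesis, fell by 1.1. The call of *Acacb* was lost without replicate 3 or 4 of 4-18. None of 26 cholesterol synthesis genes was called (limma; 9 had an adjusted p under 0.05, 6 higher and 3 lower), and their median stood 0.01 from all genes, but -0.73 from them on values scaled to a common median, or -0.4 without the far spots.

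Lipoprotein genes moved apart from each other, with 3 of 23 higher and 3 lower. *Mttp*, which loads fat onto apolipoprotein B, rose from 7.21, 6.85, 7.08 and 7.21 to 9.56, 10.17, 9.63 and 9.78 (log2 2.7, SE 0.15, adjusted p = 9.93e-09). *Angptl4*, a lipase inhibitor, rose from 7.96, 6.78, 7.36 and 7.92 to 10.18, 10.34, 10.11 and 10.11 (log2 2.68), and the hepatic lipase *Lipc* by 2.0. *Apoa1*, the main protein of high-density lipoprotein, fell from 10.73, 9.93, 10.42 and 9.55 to 7.98, 7.49, 8.67 and 8.03 (log2 -2.12, SE 0.25, adjusted p = 1.5e-05).

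*Apoc3* fell by 1.51, and *Apob* by 1.09 with 2 of its 4 values in CN-10 set aside, a call that was lost without any single array of CN-10 and without replicate 2 or 4 of 4-18, with differences from -1.36 to -0.83 over the arrays left out. *Apoa1* differed still more from 3-44 (log2 -4.3), and *Mttp* did not differ by 2-fold from either (log2 -0.35 against 3-44 and -0.22 against shRNA3T).

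Secreted plasma proteins went in both directions. In the acute phase list 2 of 24 were called higher and 6 lower (25%), and the median stood 0.3 below all genes (-0.84 at a common median, -0.69 there without the far spots, and -0.09 at the 75th percentile among genes above background on all 8 arrays). *Hamp*, the iron hormone hepcidin, fell from 11.04, 10.89, 11.47 and 10.98 to 8.81, 8.97, 8.68 and 8.81 (log2 -2.28, SE 0.13, adjusted p = 1.25e-08). *Lcn2*, *Itih3* (log2 -2.27), *Saa4* (-1.92, with -0.23 from its second probe), *Itih4* (-1.7) and the fibrinogen chain *Fga* (-1.25) were the other decreases. *Itih4* was far higher in the other silenced groups, so that 4-18 differed by -4.4 from 3-44 and by -6.98 from shRNA3T. *Hp*, the hemoglobin scavenger haptoglobin, rose from 8.11, 7.91, 8.13 and 8.43 to 10.84, 9.23, 10.11 and 9.14 (log2 1.68), and *Lbp*, which binds bacterial lipopolysaccharide, by 1.01, a call lost without replicate 2 or 4 of CN-10 or replicate 1 or 2 of 4-18, with differences down to 0.93.

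Coagulation and complement genes were called higher in 5 of 38 and lower in 3. The increases included inhibitors of plasma proteases. *Serping1*, the inhibitor of complement C1, rose from 10.89, 12.21, 11.14 and 12.27 to 13.88, 14.9, 15.06 and 15.17 (log2 3.13, SE 0.51, adjusted p = 0.000374). *Serpinf2* (antiplasmin, log2 2.09) and *Serpinc1* (antithrombin, 1.8, with overlapping arrays and -0.17 from its second probe) rose as well, and complement *C5* rose by 2.14.

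*C3*, the central complement protein, fell from 14.3, 14.14 and 14.03 (the value of the other array was set aside) to 11.96, 11.29, 12.42 and 12.18 (log2 -2.19), and *C8g* (-1.4) fell too. The third decrease was a second kininogen probe, *Kng1l1* on the array, at least 5.52-fold lower. Kininogen, glutathione transferase, glucuronosyltransferase and cytochrome P450 genes have close relatives, and a probe may read more than one of them.

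Among 18 plasma carriers 3 were called higher and 2 lower. *Ttr*, the thyroid hormone carrier transthyretin, rose from 13.1, 13.96 and 14.22 (the value of the other array was set aside) to 16.74, 17, 16.56 and 16.46 (log2 2.93, SE 0.34, adjusted p = 2.21e-05), but its direct difference was 0.09 from 3-44 and 0.55 from shRNA3T. *Igfbp1*, a carrier of insulin-like growth factors, rose by 1.29. *Tf*, the iron carrier transferrin, fell by 1.5, a call that was lost without replicate 2 or 4 of CN-10 or replicate 1 of 4-18 (-1.67 to -1.22), and *Fetub* fell by 1.19. *Alb* differed by 0.1 (adjusted p = 0.899), with arrays that overlapped and a sign that turned under other scalings.

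Hepatocyte identity was checked with 15 markers. Of these 1 (*Ttr*) was called higher and 4 (*Apoa1*, *Tf*, *Fga*, *Apob*) lower, and the median stood 0.52 below all genes (-1.17 at a common median, -0.95 there without the far spots). Among 26 liver transcription factors 4 were called higher and none lower: the bile acid sensor partners *Nr5a2* (log2 1.39, with 0.6 from its second probe) and *Nr0b2* (1.25), *Ppara* (1.15) and the drug sensor *Nr1i2* (1.03). None of these 4 calls was kept at a common median or with the deposited series values, and 3 were at a common median without the far spots. *Hnf4a* (-0.37, adjusted p = 0.234), which helps define the lineage, was not called, and *Nr1i2* fell to 0.97 without replicate 1 of 4-18 and was lost without replicate 3 of CN-10 too. Markers of other cell types were mostly too dim to read: 4 of 8 of cholangiocytes, 2 of 7 of endothelium, 5 of 10 of macrophages and leucocytes and 4 of 10 of stellate cells were well above background throughout 4-18 or CN-10. None of the first 3 lists was called, and of the stellate cell markers *Des* fell by 1.17. In RNA of whole cultures, fewer cells of a kind and less RNA per cell cannot be told apart.

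Drug metabolism proceeds by oxidation and then by conjugation. Of 46 cytochrome P450 genes 6 were called higher and 4 lower. *Cyp2c6v1* rose from 8.23, 8.04, 8.28 and 8.17 to 11.82, 11.28, 11.35 and 11.38 (log2 3.28, SE 0.21, adjusted p = 3.55e-08), and *Cyp1a2*, the caffeine-oxidizing enzyme, from 8.6, 8.57, 8.63 and 8.53 to 10.91, 10.86, 10.73 and 10.49 (log2 2.16). *Cyp2c7* was at least 2.62-fold higher, and *Cyp3a18* at least 2.28-fold lower. *Cyp4f1* (log2 -1.3) and *Cyp2s1* (-1.28, with -0.26 and -0.13 from its other probes) fell.

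Of 40 conjugation enzymes 3 rose and 7 fell (17.5%). The decreases included the glutathione transferases *Gsta3* (log2 -1.35, the probe is assigned to *Gsta1* in RefSeq), *Gsta5* (-1.82, with -3.15 from its second probe), *Gstm1* (-1.3) and *Gstm3* (-1.08, above background on 2 arrays of 4-18). The glucuronosyltransferase probe *Ugt2b36* (-1.89) and the sulfotransferase probe *Sult2al1* (-2.09, assigned to *Sult2a6* in RefSeq) were further decreases. *Gstm7* rose from 7.85, 7.65, 8.01 and 7.71 to 10.34, 9.88, 9.78 and 9.6 (log2 2.09) and was 2.97 above 3-44, and the glucuronosyltransferase probe *Ugt2b5* (1.99; *Ugt2b15* in RefSeq) and *Gstt1* (1.01) rose too. The call of *Gstt1* was lost without replicate 1 or 3 of CN-10 or replicate 2, 3 or 4 of 4-18 (down to 0.83). The direct comparisons called 12 members lower in 4-18 than in 3-44 and 10 lower than in shRNA3T, with 2 higher in each. *Gstm3* lost its call without replicate 3 of CN-10 (-0.99).

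Genes of the antioxidant factor NRF2 and the glutathione peroxidases were lower in 4 of 34 and higher in 2. *Gpx2* fell from 13.7, 13.55, 13.59 and 13.39 to 10.54, 11, 9.86 and 10.78 (log2 -3.01, SE 0.22, adjusted p = 1.42e-07). *Nqo1*, the classic quinone reductase target, fell by 1.56 and the cystine importer *Slc7a11* by 1.03, with -0.18 from its second probe and -0.96 without replicate 2 of 4-18. *Hmox1*, which also belongs to this list, and *Gpx3* (log2 1.47) rose.

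Chemokines draw immune cells to a tissue. Of 32 chemokines, cytokines and targets of NF-kB, the transcription factor of inflammation, 6 were called lower (18.8%) and 1 higher. *Cxcl1* fell from 13.17, 12.92, 13.43 and 12.77 to 8.47, 8.51, 9.02 and 8.7, to 4.76% of the level of CN-10 (log2 -4.39, SE 0.14, adjusted p = 3.35e-11), and differed by -1.66 from 3-44 and by -1.21 from shRNA3T. *Cxcl2*, its neighbor on chromosome 14, fell from 9.02, 8.83, 8.81 and 8.85 to 6.8, 6.57, 6.99 and 6.78 (log2 -2.09), above background on 2 of 4 arrays of 4-18.

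*Cxcl3* stayed near background on all arrays of 4-18 and was at least 2.35-fold lower, while its second probe gave 0.14. *Il23a* (log2 -1.52), *Cxcl16* (-1.2) and *Nfkb1* itself (-1.07) were the other decreases. *Nfkb1* lost its call without replicate 2 or 4 of CN-10 or replicate 1 or 4 of 4-18 (to -0.9). *Tnfrsf9*, the costimulatory receptor 4-1BB, rose from 6.55, 6.66, 6.83 and 6.75 to 10.09, 10.27, 10 and 9.51 (log2 3.27). Of the 32 members, 19 could be read above background throughout 4-18, throughout CN-10 or in both, and 13 in both.

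Of the 6 decreases, 5 had a RefSeq promoter, and in *Cxcl1* and *Cxcl2* it held the kB-like motif GGNNTTTCC (either strand), found in 5.13% of all promoters and 5.64% of those of genes above background on all 8 arrays. Among members of the list that were not called lower, 8 of 20 promoters (40%) held it, the same share as among the 5. *Cxcl1* and *Cxcl2* lie on the minus strand of chromosome 14, and capitals mark the motif, reversed in the first match of *Cxcl1*.

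Cxcl1, chr14:17479322-17479471, minus strand: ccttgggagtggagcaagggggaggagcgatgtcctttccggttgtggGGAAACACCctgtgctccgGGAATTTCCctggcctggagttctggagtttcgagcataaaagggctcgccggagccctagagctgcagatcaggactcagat
Cxcl2, chr14:17467256-17467405, minus strand: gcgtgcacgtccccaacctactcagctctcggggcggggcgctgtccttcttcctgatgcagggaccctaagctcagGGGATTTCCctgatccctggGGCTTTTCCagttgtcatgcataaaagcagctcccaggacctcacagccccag

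The matches begin 102 and 83 bases before the start of *Cxcl1* and 73 and 53 before that of *Cxcl2*, so both genes carry a pair of them within a short stretch. *Cxcl16*, *Il23a* and *Nfkb1* had no match in the 250 bases searched.

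Interferon-induced genes were called in both directions, 2 of 43 higher (4.65%) and 3 lower (6.98%). Genes well above background on all 8 arrays had shares near these, 5.16% and 6.1%. *Mx1* fell from 11.95, 11.38 and 11.79 (the value of the other array was set aside) to 7.64, 7.47, 7.47 and 7.21 (log2 -4.26, SE 0.17, adjusted p = 4.52e-10), above background on 3 of 4 arrays of 4-18, and differed by -2.37 from 3-44 and by -1.71 from shRNA3T. *B2m*, the light chain of class I major histocompatibility molecules, fell by 1.34. *Ifi44* rose from 8.36, 8.66, 8.81 and 8.75 to 10.84, 10.41, 10.56 and 10.57 (log2 1.95), and *Dhx58*, a helicase that regulates the sensing of viral RNA, rose by 1.56. The third decrease was a probe of *Igtp*, whose other probes gave differences of 0.42 to 0.56 and whose call was lost without any of the 4 arrays of CN-10 or without replicate 1 or 3 of 4-18 (-1.58 to -0.79).

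Bone morphogenetic proteins (BMP) and TGF-beta signal through SMAD factors. Of 30 genes of this list 4 fell and 3 rose. *Id1*, an inhibitor of differentiation and the best known BMP target, fell from 12.59, 12.62, 12.56 and 12.48 to 9.33, 9.97, 9.9 and 10.17 (log2 -2.72, SE 0.16, adjusted p = 1.38e-08), and *Smad6*, the feedback inhibitor of the pathway, by 1.14. *Hamp*, which BMP signals control in hepatocytes, belongs to this list too, and the growth factor *Areg* fell by 1.1. The increases included the corepressor *Tgif1* (log2 1.36) and *Tgfb1* (1.24). *Id1* in 4-18 differed by -1.54 from 3-44 and 0.06 from shRNA3T, and *Hamp* by -1.8 from 3-44 and by 1.84 from shRNA3T.

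**Figure D3:**
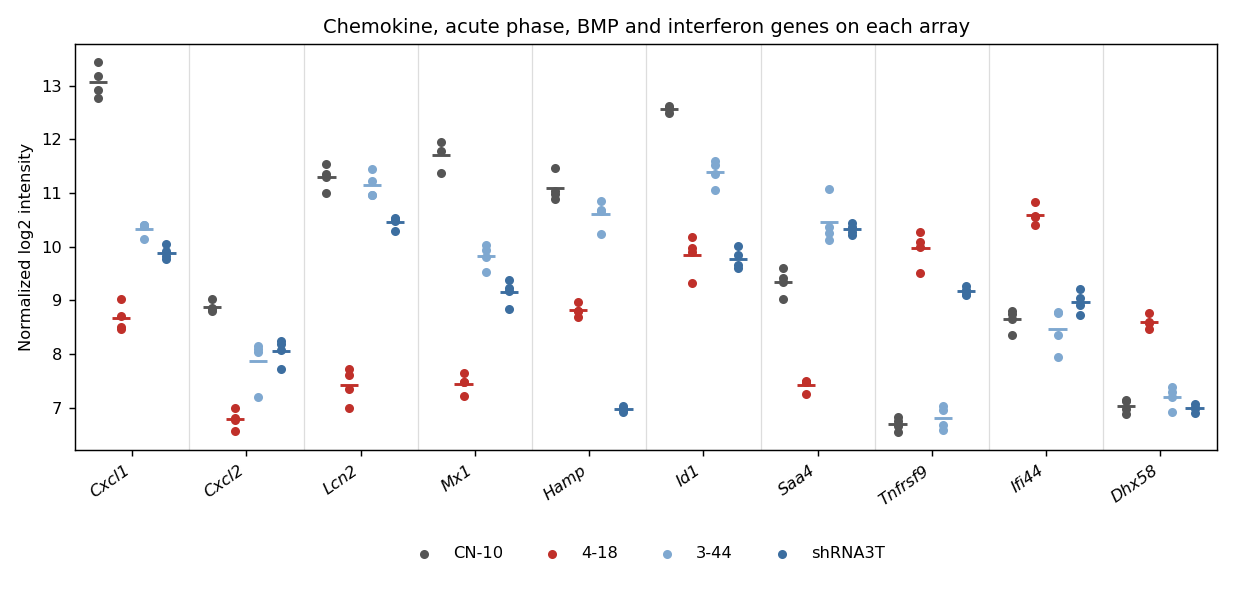
Normalized log2 intensity of 10 chemokine, acute phase, BMP and interferon genes on each of the 16 arrays, with a line at the mean of each group. For *Cxcl1*, *Cxcl2*, *Lcn2* and *Mx1* the arrays of 4-18 (red) lie below those of every other group, and *Hamp* is lowest in shRNA3T.

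Of 49 cell cycle and DNA replication genes 12 were called lower (24.5%) and none higher, and the median stood 0.49 below all genes (-1.29 at a common median, -0.97 there without the far spots). On the single arrays of 4-18 it stood at -0.481, -0.436, -0.431 and -0.543. *E2f1*, the transcription factor that opens the S phase program, fell from 13.21, 13.07, 13.03 and 13.03 to 11.52, 11.05, 11.32 and 10.04 (log2 -2.1, SE 0.25, adjusted p = 1.77e-05). *Mcm3*, a subunit of the replicative helicase, fell from 15.3, 15.34, 15.23 and 15.11 to 13.12, 14.09, 13.05 and 12.59 (log2 -2.03), and the mitotic cyclin *Ccnb1* from 12.49, 12.59, 13.11 and 13.07 to 11.04, 10.43, 10.62 and 11.23 (log2 -1.98).

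The ribonucleotide reductase subunit *Rrm2* (-1.66), the helicase subunits *Mcm7* (-1.5) and *Mcm4* (-1.02), the kinase *Cdk6* (-1.31), the cyclins *Ccne2* (-1.29) and *Ccna2* (-1.29), the licensing inhibitor *Gmnn* (-1.25), thymidylate synthase *Tyms* (-1.09) and the mitotic factor *Foxm1* (-1.02) were the rest. The second probes of *E2f1* and *Mcm3* gave -1.33 and -1.09, and that of *Foxm1* -0.57. *Foxm1* lost its call without replicate 2 of CN-10 or replicate 1 of 4-18 (to -0.93), *Tyms* without replicate 2 of 4-18 (-0.95), and *Mcm4* without replicate 3 or 4 of CN-10 or replicate 1, 3 or 4 of 4-18 (to -0.92). *Pcna*, the sliding clamp of replication, differed by -0.91 (adjusted p = 0.0322), just under the fold limit, and from -1.16 to -0.58 with an array left out. It was called lower without replicate 1 of CN-10 (-1.16) and without replicate 3 (-1.06) or 4 (-1.02) of 4-18, and stood at -0.58 without replicate 1 of 4-18. *Pcna* was also called lower with both forms of the processed signal, at a common median with or without the far spots, and with the deposited series values. Against 3-44, 13 members were called lower in 4-18 and none higher. Against shRNA3T, 1 was lower and 5 were higher in 4-18, with *Ccna2* 1.12 and *Tyms* 1.27 above that pool.

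**Figure D4:**
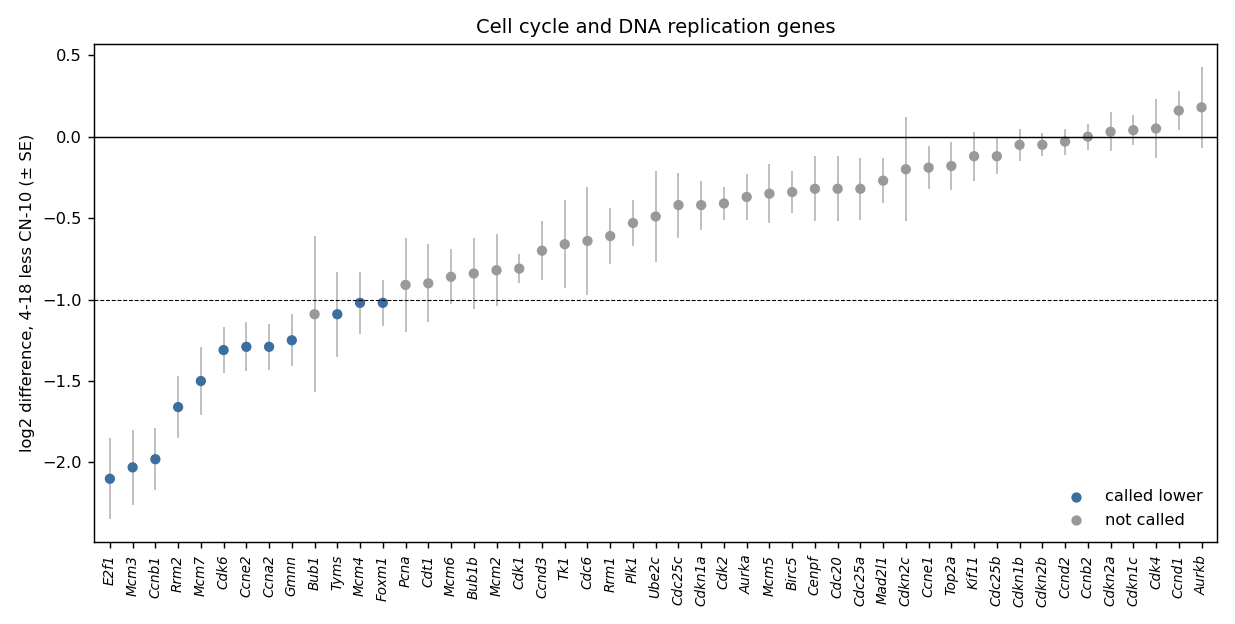
Difference of 4-18 from CN-10 on the log2 scale (± SE from limma) for 49 cell cycle and DNA replication genes, in rising order, with called genes in blue and a dashed line at a 2-fold decrease. Points run from -2.1 for *E2f1* up to 0.18, and no gene is called higher.

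Of the 12 decreases, 5 had a RefSeq promoter, and *Tyms* and *Mcm7* held an E2F element (TTTCCCGC, TTTGGCGC, TTTCGCGC or TTTGCCGC, either strand), which 1.77% of all promoters and 3.45% of those of genes above background on all 8 arrays hold. *Ccnb1*, *Mcm3* and *Gmnn* had none in that window, and of the members that were not called lower 5 of 31 promoters (16.1%) held one. The elements begin 52 bases before the start of *Mcm7* and 37 before that of *Tyms*, and capitals mark them.

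Mcm7, chr12:22163179-22163328, minus strand: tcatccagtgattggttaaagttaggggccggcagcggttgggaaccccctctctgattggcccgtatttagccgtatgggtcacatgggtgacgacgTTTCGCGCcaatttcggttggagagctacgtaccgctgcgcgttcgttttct
Tyms, chr9:120776084-120776233, minus strand: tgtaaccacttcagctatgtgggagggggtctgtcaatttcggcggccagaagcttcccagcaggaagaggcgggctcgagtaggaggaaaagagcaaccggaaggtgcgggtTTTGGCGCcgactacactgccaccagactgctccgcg

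Of 21 histone genes 2 (9.52%) were called lower and none higher, *Hist2h3c2* (log2 -1.83) and *Hist1h2bl* (-1.27, with overlapping arrays). With no fold limit, 8 had a limma adjusted p under 0.05, all of them lower. The median of the list stood 0.31 below all genes. Among 37 DNA and histone methyltransferases and demethylases *Ezh2*, the methyltransferase of histone H3 lysine 27, fell from 10.31, 10.15, 10.28 and 10.22 to 8.62, 8.16, 8.72 and 7.81 (log2 -1.91, SE 0.17, adjusted p = 1.12e-06). The histone demethylases *Kdm5b* (log2 1.37) and *Kdm4b* (1.32) rose, calls that were kept neither at a common median nor with the deposited series values, but were at a common median without the far spots. Of 29 p53 targets 2 rose (6.9%, against 5.16% of genes well above background on all 8 arrays), the stress hormone *Gdf15* (log2 1.75) and *Gadd45b* (1.03). The call of *Gadd45b* was lost without replicate 2 or 3 of CN-10 or replicate 3 of 4-18 (0.99). At a common median, with or without the far spots, *Gdf15* alone kept its call, and with the deposited series values neither did.

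Methionine metabolism, which PDRG1's partners serve, gave a single call. Of 34 genes of the methionine cycle and transsulfuration none was called higher and 1, the nicotinamide methyltransferase *Nnmt*, lower (log2 -1.13, above background on 2 of 4 arrays of 4-18). This call was kept neither at a common median, with or without the far spots, nor with the deposited series values. Other members were called lower instead, 3 at a common median and 6 with the series values, and none at a common median without the far spots. *Mat2a*, the methionine adenosyltransferase of growing cells, differed by 0.66 (SE 0.13, adjusted p = 0.00189), from 9.43, 9.58, 9.55 and 9.53 to 10.14, 10.06, 10.27 and 10.26, without overlap but under 2-fold, while its second probe gave -0.09. Among 22 members of the prefoldin and R2TP assemblies and other PDRG1 partners *Cct4* (log2 -1.25) and *Pfdn6* (-1.03), subunits of protein-folding complexes, fell and none rose, and neither was called with the processed signal at the 75th percentile. The call of *Pfdn6* was lost without replicate 1 or 3 of CN-10 or replicate 2 of 4-18 (to -0.86).

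Amino acid breakdown and stress genes were split. In the urea cycle and amino acid list 5 of 36 rose and 2 fell. None of the 5 increases, *Asl* and *Oat* included, kept its call at a common median or with the deposited series values, and 2 did at a common median without the far spots, while both decreases kept theirs in all 3. *Asl*, which releases arginine in the urea cycle, rose from 13.69, 13.51, 13.52 and 13.46 to 15.34, 14.84, 15.03 and 14.72 (log2 1.44), with *Oat* (1.26), *Bckdha* (1.11), *Got2* (1.03) and *Gls2* (1.02). *Hal*, which breaks down histidine, fell from 10.46, 10.52, 10.16 and 10.55 to 7.38, 7.76, 7.86 and 7.99 (log2 -2.67, SE 0.13, adjusted p = 1.75e-09). The call of *Bckdha* was lost without replicate 1 of CN-10, that of *Got2* without replicate 3 of either clone (to 0.99), and that of *Gls2* without replicate 1 or 2 of CN-10 or replicate 2 or 4 of 4-18 (to 0.86).

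In the amino acid response list 2 of 32 rose, *Gdf15* and the stress factor *Ddit3* (log2 1.5), and 4 fell, the pseudokinase *Trib3* (-1.71), the serine synthesis enzymes *Psph* (-1.3) and *Psat1* (-1.06), and *Slc7a11*. Both increases were kept at a common median and lost with the deposited series values. With the latter 10 members were called lower, 3 of the 4 decreases among them. The call of *Psph* was lost without replicate 2 of CN-10 or replicate 1 or 3 of 4-18 (to -1.1), and that of *Psat1*, whose arrays overlap, without replicate 2, 3 or 4 of CN-10 or replicate 1 or 2 of 4-18 (to -0.84). Among 34 chaperones and genes of the unfolded protein response *Hspa1b*, an inducible heat shock protein, was the single call, from 7.19, 6.95, 7.1 and 7.05 to 9.99, 9.94, 9.69 and 9.5 (log2 2.71), but its second probe gave 0.08.

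Of the other lists, clock genes were higher in 3 of 21, with the output factors *Tef* (log2 1.59) and *Dbp* (1.51) beside *Bhlhe40*, and lower in 1, *Npas2* (-1.15, with overlapping arrays and 0.13 from its second probe), whose call was lost without any array but replicate 1 of CN-10 and replicate 2 of 4-18 (to -0.94). The 3 increases were kept at a common median but not with the deposited series values. Immediate early and growth signalling genes were lower in 4 of 34, with *Sgk1* (-1.99), *Klf10* (-1.71) and *Spry1* (-1.39) the largest, and *Phlda1* (1.56) rose. Transporters of bile, drugs and lipids were lower in 4 of 34, with the fatty acid binding protein *Fabp1* at -1.63, the fatty acid transporter *Cd36* at -1.3 and the exporter *Abcc1* at -1.08 (other probes 0.0 and 0.18, and -0.72 without replicate 4 of 4-18), and *Abcb4*, which exports phospholipid into bile, rose by 1.89. *Fabp1* differed by -6.05 from 3-44 and by -6.3 from shRNA3T, where it was far above CN-10.

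Among 32 hormone receptors 2 rose and 2 fell (6.25% each, against 5.16% and 6.1% of genes well above background on all 8 arrays). The largest each way were *Sstr2*, a somatostatin receptor, at 2.34 (0.33 on its second probe) and the nucleotide receptor *P2ry6* at -1.96. *Ramp1* (-1.57, above background on 2 of 4 arrays of 4-18) and *Ramp2* (1.02), which modify such receptors, were the other calls, the latter lost without replicate 1 or 4 of CN-10 or replicate 2 of 4-18 (to 0.92). Keratin, claudin and junction genes fell in 3 of 40, with *Emp2* (-1.65), *Cdh17* (-1.52) and *Cldn2* (-1.49), and the scaffold protein *Pdzk1* (1.48, above background on 2 of 4 arrays of CN-10) rose. Matrix and integrin genes gave 1 call each way of 47, *Itga1* (2.06) and *Mmp14* (-1.28), semaphorins and ephrins 1 each way of 39, *Epha4* (1.3) and *Sema3c* (-1.75), and septins 1 of 12, *Sept7* (1.39). Respiratory chain subunits (1 higher and 1 lower of 50) and ribosomal proteins (1 lower of 70) had shares below those of all genes. Their calls were *Cox6b1* (1.02, probe named *LOC688869*, with -0.02 and 0.2 from its other probes and 0.98 without replicate 2 of 4-18), *Cox6a2* and *Rpl23* (-1.06, with overlapping arrays). The call of *Rpl23* was lost without replicate 2 or 4 of CN-10 or replicate 1 or 2 of 4-18 (to -0.93).

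Genes of some chromosome stretches differed together. The array files place probes on the rn4 build, in which the *Aldoc* probe lies at chr10:64308833-64308892, *Gys2* at chr4:179984073-179984132 and *Cxcl1* at chr14:18690468-18690527; exons were not assigned, since no annotation of that build was used here. Over genes well above background on all 8 arrays, the median difference of 4-18 from CN-10 was 0.044. It was 0.517 for the 511 genes of chromosome 10 from 60 Mb on, of which 19.2% were called higher and 1.76% lower, and 0.08 for the 429 genes before that point. On the single arrays of 4-18 the median of that stretch was 0.51, 0.554, 0.554 and 0.493.

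The 184 genes of chromosome 15 up to 40 Mb had a median of -0.6, with 28.3% called lower, against -0.053 for the rest of that chromosome. The 351 genes of chromosome 16 had a median of -0.392, with 16% called lower, and the 92 genes of chromosome X from 130 Mb on had -0.573, with 30.4% called lower. Medians of the other 17 chromosomes lay between -0.055 and 0.116. Whole-chromosome medians against CN-10 ran from -0.12 to 0.065 in 3-44 and from -0.103 to 0.078 in shRNA3T. These stretches were chosen for their values in 4-18, so their medians are descriptions. The direct median of 4-18 less 3-44 was 0.501 on the stretch of chromosome 10, -0.566 on that of chromosome 15, -0.332 on chromosome 16 and -0.59 on that of chromosome X. DNA copy number was not measured, and whether it differs between the clones was not tested.

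**Figure D5:**
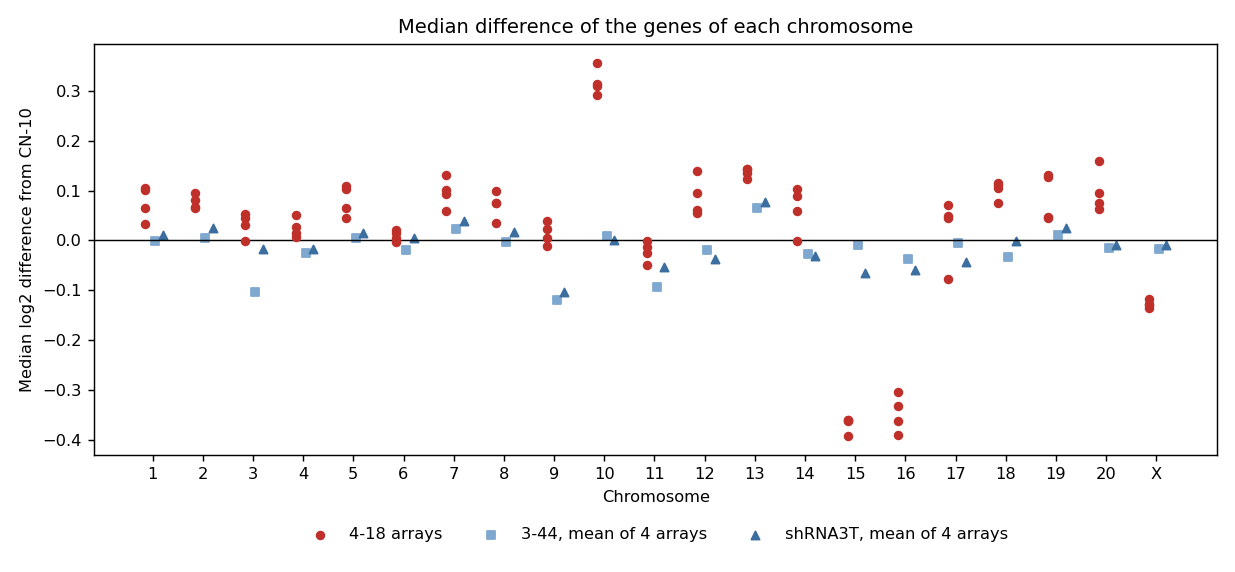
Median log2 difference from CN-10 over the genes of each chromosome that were well above background on the 8 arrays of 4-18 and CN-10, for each of the 4 arrays of 4-18 (red dots) and for the means of 3-44 (squares) and shRNA3T (triangles). Chromosomes 10, 15 and 16 stand apart in 4-18 on every array.

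In bins of 10 Mb, 25 of 224 stood at least 0.3 from the median of all genes above background, 6 above and 19 below. By the same measure 6 bins stood apart in 3-44 and 3 in shRNA3T, of which 2 in each also did in 4-18, in comparisons that share the CN-10 arrays. Among them, the bin of chromosome 11 from 80 to 90 Mb was at -0.326 in 4-18, -0.462 in 3-44 and -0.465 in shRNA3T. The bins of 4-18 were chosen by the same difference as the calls, and they held 11% of those genes and 20.6% (279 of 1353) of the called ones. Of the 1614 calls over all genes, 1294 lay outside them. The lists for glycolysis (7 of its 8 calls outside), hypoxia (7 of 8) and the cell cycle (10 of 12) rested mostly on other positions. The proteasome, the complex that degrades proteins, did not. Of its 37 subunit genes 5 were called lower and none higher, and all 5, *Psmb5* (-1.72), *Psme1* (-1.2), *Psmd6* (-1.16), *Psme2* (-1.15) and *Psmc6* (-1.0), lie on chromosome 15 before 40 Mb. *Psmc6* lost its call without replicate 1 or 3 of CN-10 or replicate 1 of 4-18 (to -0.77).

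The 6 subunits on chromosome 10 from 60 Mb on had differences from 0.23 to 0.85, all above 0, with *Psmb3* (0.85) and *Psmd11* (0.77) the highest and none called. The other 26 had a median difference of -0.2 and no call, and the median of the whole list stood 0.2 below all genes (-0.96 at a common median, -0.56 there without the far spots). *Itih3* and *Itih4* of the acute phase list lie on chromosome 16, and *G6pc1* and *Aldoc* on chromosome 10 from 60 Mb on.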

How the data were processed

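The authors labelled RNA of each sample with Cy3, hybridised it to a rat 4x44K Agilent array and deposited the spot intensities (mean, median and local background signal, linear scale) as read by Feature Extraction 10.7.3.1, with probe positions on rn4. The deposited series values, held as a score without decimal points, equal log2 of the normexp-corrected median signal within 4e-11 and were not normalized between arrays. They served as an alternative.

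From the intensities of 42877 gene spots (1377 control spots left out), normexp (offset 50) was applied to mean less background signal, log2 values were quantile-normalized over the 16 arrays, outlier-flagged spots were set aside and spots of a probe averaged (30367 probes, 26269 gene names). limma 3.58.1 in R 4.3.3 fitted a mean per group on all 16 arrays, with Benjamini-Hochberg adjustment over all probes. A gene was called at 2-fold and adjusted p under 0.05 and is given by its probe with the highest mean. 2 genes with probes called in both directions were left out. A probe was well above background on an array where at least 50% of its spots were. Where it was so on no array of a group, the fold is a bound for these normalized values. It is the bright group's mean less that of the dim group on the log2 scale. Each dim array entered with its own value or the lowest signal well above background there, whichever was higher. Under other processing the difference can be smaller than the bound, as for *Ppargc1a*, with a log2 difference down to 1.79.

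Named genes were *Pdrg1*, the 12 most raised and 12 most lowered, and up to 3 most raised and 3 most lowered of each list. Further called members of the glycolysis, gluconeogenesis, hypoxia, cell cycle, inflammation and proteasome lists, and the uncalled genes named, were added after their values were seen. Some genes that this rule would name are not reported here. The members and lists were chosen with earlier results of these data known. Promoters came from RefSeq (GRCr8). Replicate numbers did not pair the arrays. The fit was tested on simulated data. The number of arrays limits the precision.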

Additional observations from a re-analysis of the deposited data

Results flagged for a closer look

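In 21 of 391 groups of 4 arrays tested (5.37%), a single array lay apart from the other 3, by the gap to its nearest neighbour as a share of the range of the 4. That share stands in parentheses here, and the limit was the critical value of Dixon's test at the 95% level. Chance gives about 1 group in 20. In 4-18 the array apart was the lowest for *Cxcl3* (0.854, replicate 4), *Lcp1* (0.907, replicate 1), *Pcna* (0.881, replicate 1) and *Saa4* (0.89, replicate 3). In 4-18 the array apart was the highest for *Fabp1* (0.859, replicate 1), *Fbp1* (0.863, replicate 1), *Ly6d* (0.884, replicate 2) and *Mcm4* (0.887, replicate 2). In CN-10 the array apart was the lowest for *Apoc3* (0.872, replicate 4), *Cct4* (0.912, replicate 2), *Cyp2c7* (0.882, replicate 3), *Dct* (0.857, replicate 1), *Gpi* (0.967, replicate 1), *Pcna* (0.885, replicate 1), *Psat1* (0.882, replicate 1), *Spry1* (0.937, replicate 2) and *Tgfb1* (0.841, replicate 2). In CN-10 the array apart was the highest for *Lipc* (0.921, replicate 1) and *S100a6* (0.903, replicate 1). *Pdrg1* belongs here with replicate 1 of 4-18, at 11.57 (log2) and a share of 0.947. The median of the fatty acid oxidation list was highest on replicate 2 of 4-18 (0.8292). The array most often apart was replicate 1 of CN-10, in 6 groups, followed by replicate 1 of 4-18, in 5.

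For some genes 4-18 and another silenced group were called in opposite directions against CN-10, and the direct comparison between them, which does not use CN-10, was called by limma too. The comparisons against CN-10 share its 4 arrays. The difference of 4-18 from 3-44 (log2) was -4.3 for *Apoa1*, -3.24 for *Apoc3*, 3.56 for *C5*, -6.05 for *Fabp1*, -2.91 for *Fga*, -2.82 for *Gstm3*, -4.4 for *Itih4*, 5.21 for *Lcp1* and -3.03 for *Saa4*. *Cyp3a18*, above background on no array of 4-18, was at least 8.44-fold lower than in 3-44, and *Kng1l1*, likewise, at least 20.3-fold lower than in shRNA3T. The difference of 4-18 from shRNA3T (log2) was 3.21 for *Cyp1a2*, -6.3 for *Fabp1*, -3.9 for *Fga*, -2.32 for *Gstm3*, -3.38 for *Itih3*, -6.98 for *Itih4*, 5.4 for *Lcp1* and -3.69 for *Sult2al1*.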

How the results depend on the processing

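The count of 1614 called genes (687 higher, 927 lower) ran from 1531 to 1755 (629 to 744 higher, 874 to 1011 lower) when an array was left out. It was 3616 (1693 higher, 1923 lower) with the processed signal scaled to the 75th percentile, 3825 (1596 and 2229) with the quantile-normalized processed signal, 3149 (1197 and 1952) at a common median (1837, 663 and 1174, with the 3 far spots of replicate 4 of 4-18 also left out of the background fit) and 3028 (218 and 2810) with the deposited series values, where 7.2% of calls were higher against 42.6%. A 1.5-fold limit gave 4097 (1928 and 2169) and no fold limit 6280 (3035 and 3245). The median of all genes shifted by 0.19, 0.37 and 0.13 at the 75th percentile, the common median and the series values, and every list median here is relative to it. *Pdrg1* was called at a common median (-1.27) and with the series values (-1.52) but not at a common median without the 3 far spots (-0.92, adjusted p = 0.0264), and ranged from -0.92 to -0.33 with an array left out. At a common median the count was thus 3149 with those spots and 1837 without them, still above 1614. The cause of the differences between settings was not tested.

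Of 177 called genes named in the text, 104 were called under every alternative that measured them and none changed sign. *Alb* read -0.18 with the quantile-normalized processed signal, -0.13 at a common median, -0.36 with the series values, and -0.15, 0.0, -0.06 and -0.08 without replicates 1 and 2 of CN-10 and 2 and 3 of 4-18, within a range of -0.15 to 0.28 over the 8 arrays left out in turn. *Pck1* read 0.06 with both forms of the processed signal and was called lower with the series values (-1.0). *Vegfa* read 0.01 with probes averaged and was called lower at a common median (-1.27) and with the series values (-1.52).

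List medians at a common median and with the series values were 0.07 and 0.06 for hypoxia targets, 0.01 and 0.0 for glycolysis, -0.23 and -0.22 for gluconeogenesis, -0.37 and -0.35 for fatty acid oxidation, -0.73 for both in cholesterol synthesis, -0.84 and -0.82 for the acute phase, -1.29 for both in the cell cycle, -0.96 for both in the proteasome, and -1.17 and -1.18 for hepatocyte markers. At a common median with the 3 far spots left out of the background fit, an alternative chosen after seeing the data, they were 0.24, 0.19, 0.11, 0.01, -0.4, -0.69, -0.97, -0.56 and -0.95 in the same order. At the 75th percentile they were 0.11 for gluconeogenesis, -0.21 for cholesterol synthesis, -0.68 for the acute phase, -0.94 for the cell cycle, -0.35 for the proteasome and -0.89 for hepatocyte markers. With the quantile-normalized processed signal the acute phase was at -0.41 and the cell cycle at -0.7, with cyclic loess the acute phase at -0.19, with array weights gluconeogenesis at 0.54 and cholesterol synthesis at 0.1, among probes above background in at least 1 group the acute phase at -0.51, and among those above it on all 8 arrays the cell cycle at -0.68. Also chosen after seeing the data, genes above background on all 8 arrays gave at the 75th percentile 0.74 for glycolysis, -0.09 for the acute phase, -0.83 for the cell cycle and -0.74 for hepatocyte markers, at a common median -0.07 for cholesterol synthesis and -0.66 for the cell cycle, and with the series values the same values for these lists and 0.26 for fatty acid oxidation. For hypoxia, glycolysis, gluconeogenesis and fatty acid oxidation, the same genes at a common median gave values within the spread between arrays of the quantile-normalized ones. Outside the positions that stand apart, cholesterol synthesis was at 0.08 and the cell cycle at -0.42. Leaving out an array gave 0.34 to 0.59 for glycolysis, 0.3 to 0.55 for gluconeogenesis, -0.07 to 0.08 for cholesterol synthesis, -0.41 to -0.19 for the acute phase and -0.58 to -0.45 for the cell cycle.

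With the replicate block 1630 genes were called (687 higher, 943 lower), of the genes named *Apob* alone lost its call, and *Pdrg1* was at -0.77 (limma adjusted p = 0.0176), still under 2-fold. Arrays of the same number correlated at 0.244, 0.024, 0.0208 and -0.112 in their deviations, so the numbers were not taken as pairs. On the given strand alone 25.1% of all promoters held the hypoxia core, 0.936% an E2F element and 2.7% the kB-like motif. Signal over background sets the limit for dim genes, where a difference is a bound or rests on a part of the arrays.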
